A study of Mus musculus with 8 samples.

Results

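The 10 genes described here form the core of cellular iron regulation: the iron sensor Fbxl5, the iron regulatory protein genes Ireb2 and Aco1, the ferritin genes Fth1 and Ftl1, and the transport genes Tfrc, Slc11a2, Steap3, Slc40a1 and Heph. They were taken by symbol from a table of 24535 genes, and 10 of 10 have a row and passed the filter on low values. The table gives RNA-seq levels of polyadenylated RNA in brown adipose tissue, the heat-producing fat. All mice were 129Sv/C57BL6j, 18 weeks old, on chow and at 30 °C. The 4 wild-type libraries are WT 55, 62, 64 and 65, and the 4 libraries of the adipose tissue knockout of PGRMC2, which the series title calls a heme chaperone, are PATKO 53, 57, 70 and 71. The sources used here do not give the Cre driver behind the knockout, the sex of the mice or whether each library is 1 animal. The level is FPKM, fragments scaled by gene length and library size, so levels can be set side by side between genes.

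Cells balance iron mainly after transcription. When iron is scarce, the iron regulatory proteins IRP1 (encoded by Aco1) and IRP2 (encoded by Ireb2) bind hairpins called iron-responsive elements. On a hairpin in the 5′ untranslated region they block translation of ferritin and of the exporter ferroportin, and on hairpins in the 3′ untranslated region they protect the transferrin receptor transcript from decay. When iron is plentiful, IRP1 takes up an iron-sulphur cluster and acts as a cytosolic aconitase, while FBXL5, which holds iron in a hemerythrin-like domain, marks IRP2 for degradation. FBXL5 and IRP2 are therefore set largely at the protein level, which RNA-seq does not measure. Brown adipocytes use much iron for heme and for iron-sulphur proteins of their mitochondria.

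The hairpins are what ties these transcripts to the regulators, so they are shown first. Coding transcripts of GENCODE M21, whose assembly GRCm38 is also known by the authors' build name mm10, were searched on the sense strand for an unpaired C, a 5-base arm, the loop CAGTGN and a 5-base arm that pairs with the first at all 5 positions. Pairs of G with T were allowed, besides A with T and G with C. This pattern occurred in 1.32% of 21875 coding genes, in the 5′ untranslated region of 0.128% and in the 3′ untranslated region of 0.581%. Of the 10 genes, 4 held it, with 7 matches. Each line gives 30 bases with the loop in capitals.
Fth1, chr19:9982732-9982761, plus strand, 5′ untranslated region: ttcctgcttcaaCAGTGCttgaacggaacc
Ftl1, chr7:45459778-45459807, minus strand, 5′ untranslated region: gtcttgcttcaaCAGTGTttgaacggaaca
Slc40a1, chr1:45925464-45925493, minus strand, 5′ untranslated region: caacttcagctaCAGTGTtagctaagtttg
Tfrc, chr16:32631219-32631248, plus strand, 3′ untranslated region: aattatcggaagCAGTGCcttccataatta
Tfrc, chr16:32631598-32631627, plus strand, 3′ untranslated region: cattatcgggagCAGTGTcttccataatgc
Tfrc, chr16:32631663-32631692, plus strand, 3′ untranslated region: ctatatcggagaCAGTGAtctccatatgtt
Tfrc, chr16:32631710-32631739, plus strand, 3′ untranslated region: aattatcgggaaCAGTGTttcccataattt

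The elements of the ferritin genes Fth1 and Ftl1 shared 26 of 30 bases, while those of Fth1 and Slc40a1 shared 13 of 30. Among the 4 Tfrc elements, pairs shared 18 to 25 of 30 bases. The match lay in 3 of 3 coding transcripts of Fth1, 1 of 2 of Ftl1, 1 of 1 of Slc40a1 and 1 of 2 of Tfrc, and the table gives 1 value a gene, so isoforms with and without it cannot be told apart. Slc11a2 has a known element in its 3′ untranslated region that this strict pattern did not match, and Fbxl5, Ireb2, Aco1, Steap3 and Heph also had no match.

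The values of PATKO against WT below are a description without a test. The genes were chosen by symbol with the PATKO against WT results of these 8 libraries known, so the FPKM of both groups count as the values they were selected on. FPKM summed to 287525 to 291153 in WT libraries and 307371 to 315232 in PATKO libraries. The median log2 change of all 12235 genes tested was 0.17 with FPKM as deposited and -0.00 after median-of-ratios scaling, which divides each library by the median ratio of its genes to their means and is called rescaling from here on. Each change below is therefore given on both scales, as a difference of log2(FPKM + 0.5) with its standard error (SE). The targeted gene Pgrmc2 was 35.5 to 41.5 FPKM in WT and 2.99 to 3.67 FPKM in PATKO. In bulk tissue, a change in the number of cells of a type and a change in RNA per cell cannot be told apart.

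Fbxl5 encodes the iron-sensing subunit of a ubiquitin ligase and lies on chromosome 5 (43744615 to 43821638, minus strand, GRCm38). It was 13.3, 10.9, 13.5 and 12.5 FPKM in the WT libraries 55, 62, 64 and 65, and 22.7, 22.5, 23.7 and 21.9 FPKM in the PATKO libraries 53, 57, 70 and 71. Every PATKO library lay above every WT library, and the PATKO libraries differed little among themselves (highest over lowest 1.08, against 1.25 in WT). The PATKO mean was 1.81 times the WT mean (log2 change 0.84, SE 0.08), and 264 of the 12235 genes tested had a higher change. After rescaling it was 12.0 to 14.9 in WT and 20.6 to 21.5 in PATKO, so the groups still did not overlap (log2 change 0.64, SE 0.07), and 291 genes had a higher change. Bst1, which overlaps Fbxl5 on the opposite strand in the annotation, was 0.117 to 0.330 FPKM over the 8 libraries.

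**Figure D1:**
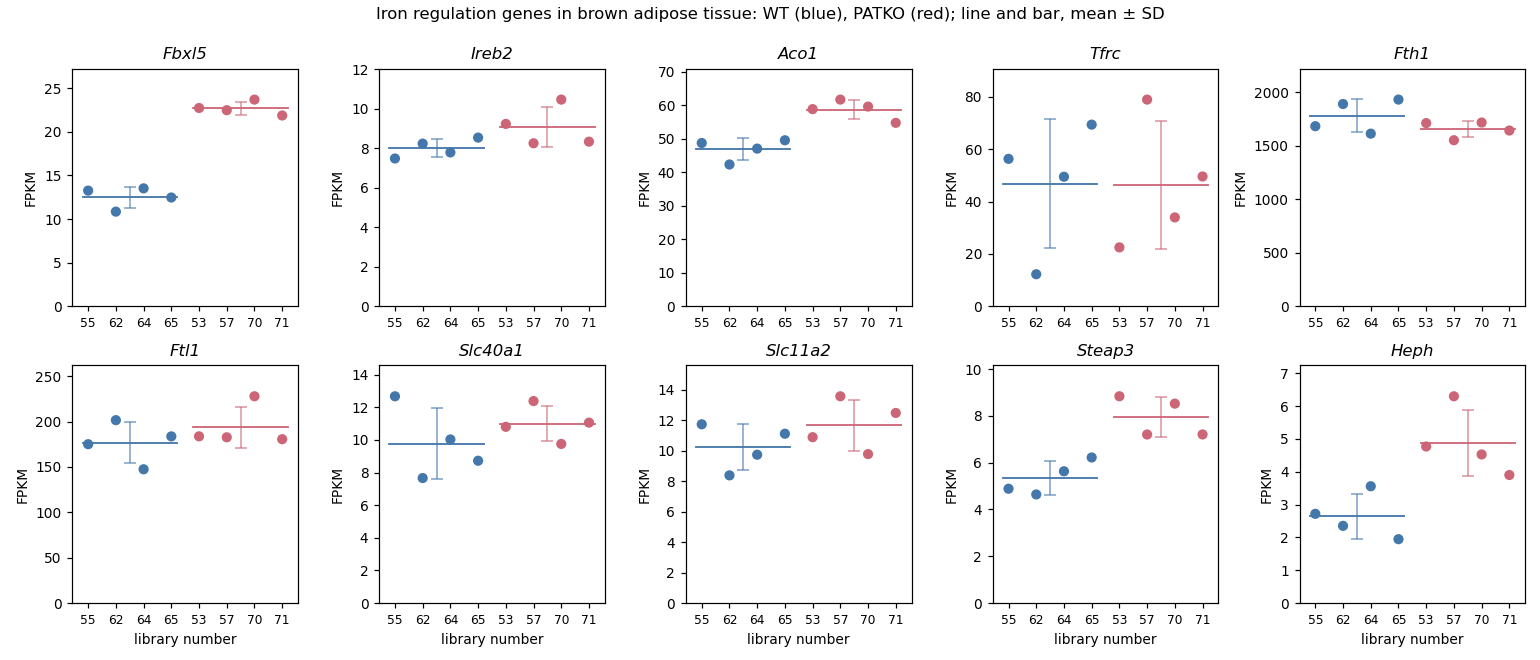
FPKM (vertical axis, from 0, its own range in each panel) of the 10 genes in each library, numbered on the horizontal axis, with WT in blue and PATKO in red; lines and bars give the mean ± SD of 4 libraries. The red points of Fbxl5 sit between 21.9 and 23.7 and the blue points between 10.9 and 13.5, whereas both groups of Tfrc spread widely (12.3 to 69.4 in WT and 22.5 to 78.9 in PATKO).

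The main target of FBXL5, IRP2, is encoded by Ireb2 on chromosome 9 (54863789 to 54912530, plus strand). Ireb2 was 7.48, 8.24, 7.79 and 8.54 FPKM in the WT libraries 55, 62, 64 and 65, and 9.23, 8.25, 10.5 and 8.33 FPKM in the PATKO libraries 53, 57, 70 and 71. The groups overlapped, and PATKO 57 and 71 lay within the WT range. Its log2 change was 0.16 (SE 0.09) as deposited, near the median of all genes, and -0.02 (SE 0.07) after rescaling.

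Aco1, the gene of IRP1 and cytosolic aconitase, lies on chromosome 4 (40143081 to 40198338, plus strand). It was 48.7, 42.3, 47.1 and 49.5 FPKM in the WT libraries 55, 62, 64 and 65, and 58.8, 61.7, 59.6 and 54.7 FPKM in the PATKO libraries 53, 57, 70 and 71. The groups did not overlap as deposited (log2 change 0.32, SE 0.07). After rescaling they met, with WT at 46.8 to 51.9 and PATKO at 51.8 to 58.7 (log2 change 0.13, SE 0.06). In WT libraries the Aco1 level was 5.87 ± 0.572 times the Ireb2 level (SD, n = 4).

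Fth1 encodes the ferritin heavy chain, which oxidises iron for storage, and was the most abundant of the 10 genes, with 10 of the 12235 genes tested above it. It was 1681, 1888, 1612 and 1929 FPKM in the WT libraries 55, 62, 64 and 65, and 1710, 1550, 1715 and 1641 FPKM in the PATKO libraries 53, 57, 70 and 71. The groups overlapped as deposited (log2 change -0.10, SE 0.08). After rescaling each PATKO library (1477 to 1618) lay below each WT library (1740 to 2086), with a log2 change of -0.30 (SE 0.10), so whether the groups overlap turned on the scaling.

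Ftl1 encodes the ferritin light chain, which promotes the formation of the iron core. It was 175, 202, 147 and 184 FPKM in the WT libraries 55, 62, 64 and 65, and 184, 183, 228 and 181 FPKM in the PATKO libraries 53, 57, 70 and 71. The groups overlapped, and PATKO 70 stood above the other PATKO libraries. Its log2 change was 0.13 (SE 0.11) as deposited and -0.06 (SE 0.10) after rescaling, so its direction turned with the scaling. GENCODE M21 lists 2 loci named as copies of Fth1 and 3 named as copies of Ftl1, and none of these copies has a row among the 24535 genes. The authors' counting could split reads between near-identical copies, so both ferritin levels are uncertain.

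Tfrc encodes transferrin receptor 1, the main entry of transferrin-bound iron, and was the most variable of the 10 genes. It was 56.3, 12.3, 49.5 and 69.4 FPKM in the WT libraries 55, 62, 64 and 65, and 22.5, 78.9, 33.95 and 49.6 FPKM in the PATKO libraries 53, 57, 70 and 71. WT 62 and PATKO 53 were low and PATKO 57 was high, and the groups overlapped through most of their range. The highest library was 5.66 times the lowest within WT and 3.51 times within PATKO. Its SD within groups on the log2 scale was 0.95, and 0.866% of the genes tested had a larger one. The log2 change was 0.08 (SE 0.53) as deposited and -0.12 (SE 0.54) after rescaling, an error too wide to give a direction.

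Slc11a2 encodes DMT1, which moves iron out of the endosome. It was 11.7, 8.38, 9.73 and 11.1 FPKM in the WT libraries 55, 62, 64 and 65, and 10.9, 13.6, 9.78 and 12.5 FPKM in the PATKO libraries 53, 57, 70 and 71. WT 62 was the lowest and PATKO 57 the highest library, as for Tfrc and Aco1, and the groups overlapped. WT 62 was also the lowest library of Fbxl5, Slc40a1 and Steap3. The log2 change of Slc11a2 was 0.18 (SE 0.13) as deposited and -0.01 (SE 0.13) after rescaling.

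Steap3 encodes a ferrireductase that prepares iron in the endosome for DMT1, and lies on chromosome 1 (120190757 to 120272705, minus strand). It was 4.88, 4.64, 5.63 and 6.22 FPKM in the WT libraries 55, 62, 64 and 65, and 8.84, 7.20, 8.52 and 7.20 FPKM in the PATKO libraries 53, 57, 70 and 71. All PATKO libraries lay above all WT libraries, on both scales. The log2 change was 0.53 (SE 0.11) as deposited and 0.35 (SE 0.10) after rescaling.

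Slc40a1 encodes ferroportin, the known iron exporter of animal cells. It was 12.7, 7.67, 10.03 and 8.73 FPKM in the WT libraries 55, 62, 64 and 65, and 10.8, 12.4, 9.76 and 11.1 FPKM in the PATKO libraries 53, 57, 70 and 71. Every PATKO value lay within the WT range. The log2 change was 0.18 (SE 0.14) as deposited and -0.01 (SE 0.14) after rescaling.

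Heph encodes hephaestin, a copper ferroxidase that works beside ferroportin, and lies on chromosome X (96455359 to 96574485, plus strand). It was 2.72, 2.35, 3.56 and 1.95 FPKM in the WT libraries 55, 62, 64 and 65, and 4.77, 6.30, 4.53 and 3.90 FPKM in the PATKO libraries 53, 57, 70 and 71. The groups did not overlap as deposited, with WT 64 and PATKO 71 closest to each other (log2 change 0.78, SE 0.17). They overlapped after rescaling, where WT 64 was at 3.93 and PATKO 71 at 3.78 (log2 change 0.61, SE 0.18). Hsf3, which overlaps Heph on the opposite strand, was 0.101 to 0.454 FPKM.

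By WT mean, the order of levels was Fth1 (1778 FPKM), Ftl1 (177 FPKM), Aco1 (46.9 FPKM), Tfrc (46.9 FPKM), Fbxl5 (12.5 FPKM), Slc11a2 (10.2 FPKM), Slc40a1 (9.78 FPKM), Ireb2 (8.01 FPKM), Steap3 (5.34 FPKM) and Heph (2.64 FPKM). WT libraries did not overlap between Fth1 and Ftl1, Ftl1 and Aco1, Ireb2 and Steap3, or Steap3 and Heph. The neighbours Aco1 and Tfrc, Tfrc and Fbxl5, Fbxl5 and Slc11a2, Slc11a2 and Slc40a1, and Slc40a1 and Ireb2 overlapped in WT. In PATKO libraries Fbxl5 no longer overlapped Slc11a2, while Ireb2 and Steap3 did overlap.

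Ratios between genes of the same library do not depend on the scaling of libraries. Fbxl5 to Ireb2 was 1.77, 1.32, 1.74 and 1.46 in WT 55, 62, 64 and 65, and 2.46, 2.72, 2.27 and 2.62 in PATKO 53, 57, 70 and 71. Fbxl5 to Aco1 was 0.252 to 0.287 in WT and 0.364 to 0.400 in PATKO. Neither ratio overlapped between groups, so Fbxl5 transcript was higher in PATKO relative to the transcripts of both iron regulatory proteins. Fbxl5 was chosen with its PATKO values known, so these ratios describe the same difference and add no support to it. Fth1 to Ftl1 was 9.37 to 10.9 in WT and 7.53 to 9.30 in PATKO, separated by the small gap between WT 62 and PATKO 53. Tfrc to Fth1 overlapped, at 0.0065 to 0.0360 in WT and 0.0132 to 0.0509 in PATKO. The other ratios computed overlapped as well. Aco1 to Ireb2 was 5.14 to 6.51 in WT and 5.70 to 7.47 in PATKO. Heph to Slc40a1 was 0.214 to 0.355 in WT and 0.353 to 0.509 in PATKO. Steap3 to Tfrc was 0.0867 to 0.3785 in WT and 0.0912 to 0.3924 in PATKO.

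**Figure D2:**
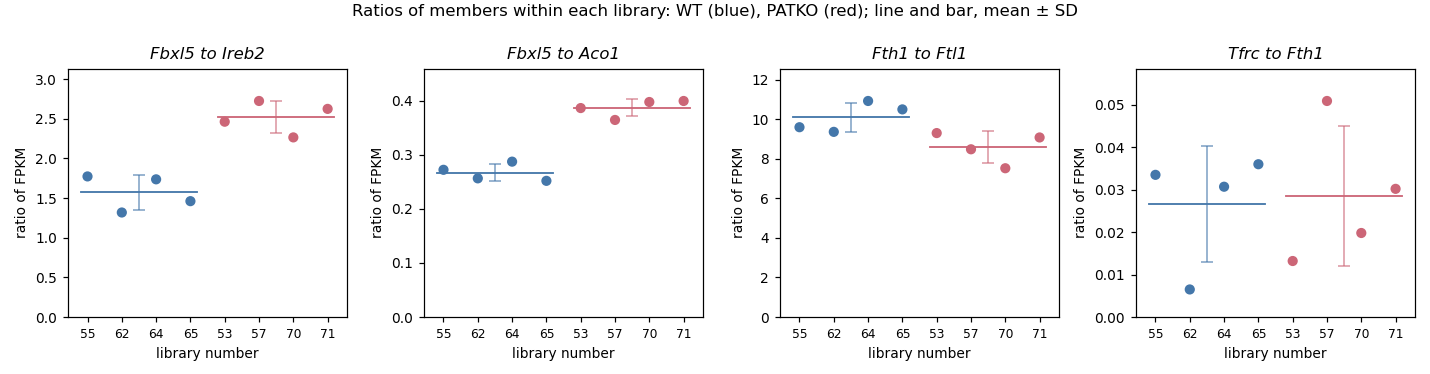
Ratio of FPKM between named genes within each library (vertical axis, from 0) by library number, with WT in blue and PATKO in red and lines and bars for the mean ± SD of 4 libraries. The ratio of Fbxl5 to Ireb2 is 1.57 ± 0.219 in WT and 2.52 ± 0.201 in PATKO, and the groups of Tfrc to Fth1 overlap.

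With FPKM as deposited, limma's adjusted p over all genes was under 0.05 for 4 of the 10 genes, Fbxl5, Aco1, Steap3 and Heph, which were higher in PATKO, beside 13.5% of all genes tested (13.2% higher and 0.270% lower). The groups did not overlap for the same 4 genes, all higher, beside 24.6% of all genes (24% higher and 0.597% lower). Without WT 62, WT 64, PATKO 53 or PATKO 70, 1 of 10 passed, Fbxl5. After rescaling 1 of 10 passed, Fbxl5, beside 0.123% of all genes (0.0817% higher), and the groups did not overlap for 3, Fbxl5 and Steap3 (higher) and Fth1 (lower), beside 10.1% (5.64% higher and 4.43% lower). The rescaled call of Fbxl5 was lost without WT 65, PATKO 53, PATKO 57 or PATKO 71. Since this comparison was in view when the genes were chosen, nothing is read from these counts. The 4 genes with a hairpin match, Fth1, Ftl1, Slc40a1 and Tfrc, had log2 changes of -0.30 to -0.01 after rescaling, each within the SE of 0 but for Fth1.

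A wider list of 47 iron genes with a row gives the surroundings, and 36 of them passed the filter on low values. With FPKM as deposited 9 of 36 rose (25%, beside 13.2% of all genes tested) and 0 fell. At an unadjusted p under 0.05 the count was 17 higher and 1 lower of 36, beside 4233 higher and 170 lower of all 12235 genes. Limma called 0 of them when WT 62, WT 64, PATKO 53 or PATKO 70 was left out, 1 without WT 65 and 3 without PATKO 57. After rescaling the adjusted limma test called 0 of 36, and the unadjusted p was under 0.05 for 5 higher and 5 lower genes, beside 1115 higher and 1009 lower of all 12235; 18 lay above 0 and 18 below. The median log2 change of the 36 was 0.20 as deposited and 0.01 after this scaling, beside 0.17 and -0.00 over all genes.

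Among 7 partners and regulators of FBXL5, 1 rose as deposited (14.3%, beside 13.2% of all genes tested), 0 fell and 6 did not pass. The ligase scaffold Cul1 rose from 22.0 ± 0.866 to 26.2 ± 1.32 FPKM (± SD, 4 libraries; limma, adjusted p = 0.039), but not after rescaling (log2 change 0.05, limma, adjusted p = 0.727). The adaptor Skp1a, the most abundant of this list, was 80.4 ± 3.37 FPKM in WT and 78.7 ± 2.66 FPKM in PATKO. Its log2 change was -0.03 as deposited and -0.23 after rescaling (SE 0.07), beside 0.84 and 0.64 for Fbxl5.

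Of 6 further transcripts known to carry an iron-responsive element, 2 rose (33.3%, beside 13.2% of all genes tested), 0 fell and 4 did not pass. The strict hairpin pattern matched 2 of these 6, and neither of the 2 that rose, Epas1 and Pfn2. Epas1, the gene of the hypoxia factor HIF-2α, rose from 70.4 ± 8.99 to 90.8 ± 2.06 FPKM (± SD, 4 libraries; limma, adjusted p = 0.032), and its log2 change was 0.18 after rescaling (limma, adjusted p = 0.343). Pfn2, a profilin gene, rose from 3.46 ± 0.196 to 6.11 ± 2.11 FPKM (± SD, 4 libraries; limma, adjusted p = 0.037), with PATKO 71 at 9.27 and the other PATKO libraries at 4.805 to 5.19 FPKM.

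Of 10 genes of the transferrin cycle and of ferrireduction, 7 were tested and 1 rose (14.3%, beside 13.2% of all genes tested). It was Snx3, a sorting nexin that recycles the transferrin receptor (58.9 ± 2.79 to 72.4 ± 5.25 FPKM, ± SD, 4 libraries, limma, adjusted p = 0.034). Of 7 other genes of iron import, export and oxidation, 5 were tested and 2 rose (40%, beside the same 13.2%). Scara5, a receptor for ferritin, rose from 3.36 ± 0.644 to 6.65 ± 2.22 FPKM (± SD, 4 libraries; limma, adjusted p = 0.037), with PATKO 53 and 70 high (8.16 and 8.93 FPKM) and PATKO 57 and 71 lower (4.68 and 4.81 FPKM). Slc39a14, an importer of iron not bound to transferrin, rose from 3.88 ± 0.388 to 5.18 ± 0.435 FPKM (± SD, 4 libraries; limma, adjusted p = 0.037). The ferroxidase gene Cp was the most abundant of that list, at 7.32 ± 1.37 FPKM in WT and 6.12 ± 1.87 FPKM in PATKO.

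Of 6 genes of ferritin turnover and iron chaperones, 5 were tested and 1 rose (20%, beside 13.2% of all genes tested). It was the glutaredoxin gene Glrx3 (23.0 ± 1.58 to 27.3 ± 1.18 FPKM, ± SD, 4 libraries, limma, adjusted p = 0.045). The iron chaperone gene Pcbp2 was the most abundant, at 71.5 ± 7.04 FPKM in WT and 76.9 ± 4.83 FPKM in PATKO. Limma called 0 of 3 AU-rich element binding proteins that spare iron (unadjusted p under 0.05 for 1 higher gene and 0 lower genes), and Zfp36l1, the most abundant, was 17.6 ± 2.89 FPKM in WT and 22.2 ± 2.06 FPKM in PATKO. None of the genes of the wider list named in this and the 3 preceding paragraphs passed after rescaling. Rescaled log2 changes were 0.515 for Pfn2, 0.10 for Snx3, 0.67 for Scara5, 0.20 for Slc39a14 and 0.05 for Glrx3.

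Of 8 genes of systemic iron hormones and their receptors, 3 were tested and 2 rose (66.7%, beside 13.2% of all genes tested), Hfe2 and Neo1. Hfe2 encodes hemojuvelin, a co-receptor known from liver and skeletal muscle, and was 2.31, 1.31, 1.59 and 3.74 FPKM in the WT libraries 55, 62, 64 and 65, and 6.30, 4.67, 6.03 and 16.003 FPKM in the PATKO libraries 53, 57, 70 and 71 (limma, adjusted p = 0.031). WT 65 was the highest WT library and PATKO 71 the highest of all. Neo1, its binding partner, rose from 4.38 ± 0.213 to 5.39 ± 0.307 FPKM (± SD, 4 libraries; limma, adjusted p = 0.045). The hepcidin genes Hamp and Hamp2 were listed at 0 in all 8 libraries. Neither Hfe2 nor Neo1 passed after rescaling, where their log2 changes were 1.43 (SE 0.37) and 0.09 (SE 0.07).

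**Figure D3:**
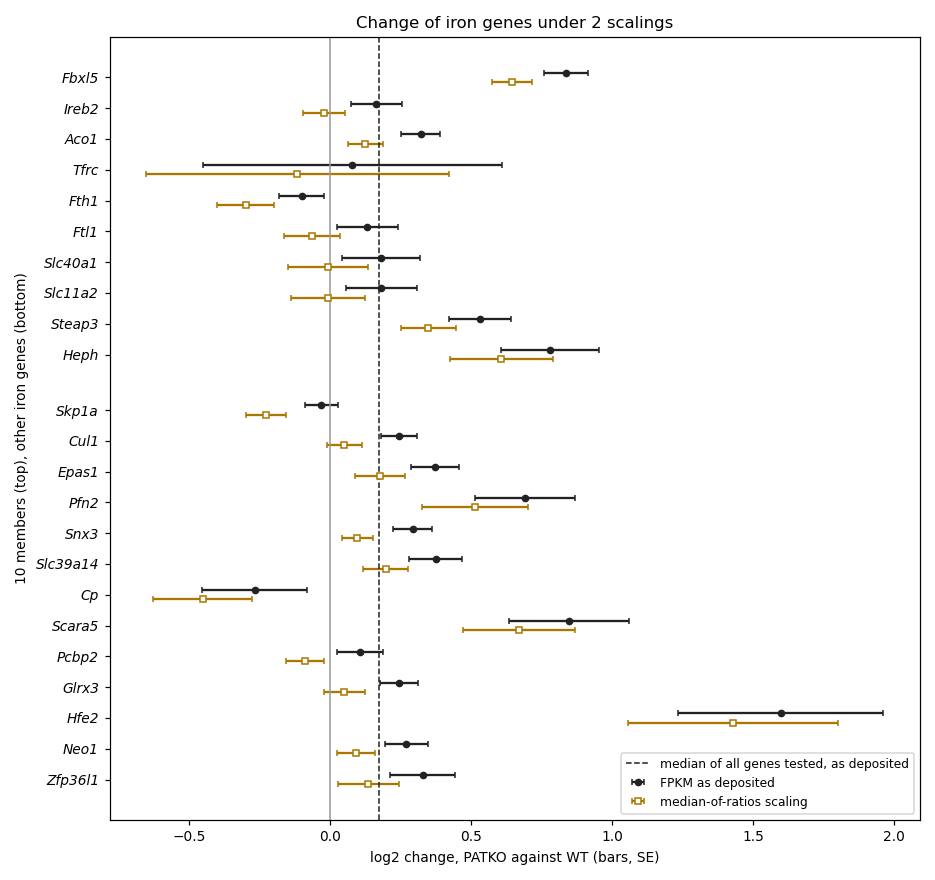
Log2 change of PATKO against WT (horizontal axis, bars for the SE) of the 10 genes (top) and of the genes of the wider list named in the text (bottom), with FPKM as deposited (filled) and after rescaling (open); the dashed line is the median of all genes tested as deposited, 0.17. Rescaling moves every gene shown to the left; Fbxl5 is then at 0.64, while Ireb2, Slc40a1 and Slc11a2 are at -0.02, -0.01 and -0.01.

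Skeletal muscle marker RNA was higher in PATKO libraries beside these results. As deposited, the summed level of 12 muscle markers was 452 to 1115 FPKM in WT and 1282 to 4928 FPKM in PATKO. WT 65 and PATKO 71 were the highest of their groups. The groups did not overlap for 10 of the 12 (beside 24.6% of all genes), and limma called 12 (beside 13.5% of all genes). After rescaling 5 of the 12 did not overlap (beside 10.1% of all genes) and limma called 0 (beside 0.123% of all genes). Their median log2 change was 1.84 as deposited and 1.65 after rescaling. With the mean log2 muscle level as a covariate, the log2 change was 0.85 for Fbxl5 (SE 0.16) and 1.37 for Heph (SE 0.24), while Hfe2 went to -0.09 and Pfn2 to 0.07. With this covariate limma called 0 of the 10 genes, beside 0.0163% of all genes. The summed muscle level did not overlap between the groups, so muscle level and genotype cannot be told apart here. The SE of Fbxl5 was 0.08 without the covariate and 0.16 with it. Of 12 brown adipocyte markers 10 were above 1 FPKM in every library. The sum of the 12 was 14980 to 16626 FPKM in WT and 15049 to 17356 FPKM in PATKO. Its largest part was Fabp4, with a mean of 9190 FPKM in WT and 9200 FPKM in PATKO, so the sum says little of the other markers. As deposited, 2 of the 12 were higher and 1 lower in PATKO without overlap, beside 24% and 0.597% of all genes, and limma called 0. The sum of 12 macrophage markers, a cell type rich in Slc40a1 and ferritin, was 122 to 236 FPKM in WT and 127 to 254 FPKM in PATKO. The sum of 9 erythroid markers, a lineage rich in Tfrc, was 349 to 555 FPKM in WT and 260 to 376 FPKM in PATKO. Of the 9, 5 were above 1 FPKM in every library, the globin genes among them, while Slc4a1 and Klf1 were near 0. The changes of the 5 tested all lay below 0, with a median log2 change of -0.38 as deposited and -0.57 after rescaling (limma called 0). The 6 endothelial markers summed to 129 to 186 FPKM in WT and 146 to 174 FPKM in PATKO, 6 hepatocyte markers to at most 0.255 FPKM, and 7 lymphocyte markers to 1.49 to 6.09 FPKM in WT and 1.14 to 2.01 FPKM in PATKO. The part of macrophages and erythroid cells in these results was not tested.

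Fbxl5 belongs to the F-box proteins with leucine-rich repeats, the substrate-binding subunits of one class of ubiquitin ligases. Of 20 other genes of this family, 15 passed the filter. With FPKM as deposited 1 of 15 rose (6.67%, beside 13.2% of all genes tested) and 0 fell. The gene that rose was Fbxl4, from 10.2 to 12.3 FPKM (limma, adjusted p = 0.045, and 0.686 after rescaling). Their log2 changes ranged from -0.06 to 0.36 as deposited and from -0.23 to 0.18 after this scaling, beside 0.84 and 0.64 for Fbxl5.

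On chromosome 5 the nearest tested genes were C1qtnf7 and Cc2d2a before Fbxl5 and Cd38 and Tapt1 after it. Cc2d2a, a ciliary gene, rose from 3.69 ± 0.320 to 4.95 ± 0.576 FPKM (± SD, 4 libraries; limma, adjusted p = 0.041), but not after rescaling (log2 change 0.20, limma, adjusted p = 0.292). The log2 changes of C1qtnf7, Cd38 and Tapt1 were 0.20, 0.27 and 0.26 as deposited (limma, adjusted p = 0.420, 0.141 and 0.117), beside 0.84 for Fbxl5.

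Likeness of profile was measured as the root mean square difference of log2(FPKM + 0.5) over the 8 libraries, each gene centred on its own mean. FPKM were as deposited and both groups entered, so a similar difference between the groups counts as likeness. The profile nearest to Fbxl5 was that of Glo1, a glyoxalase gene (difference 0.088, beside a spread of Fbxl5 about its own mean of 0.43). Eif4a2, a translation helicase gene, followed at 0.11 and Adamtsl5 at 0.11. Their log2 changes as deposited were 0.78 for Glo1, 0.72 for Eif4a2 and 0.89 for Adamtsl5, beside 0.84 for Fbxl5. Likeness within the groups alone was not tested. Glo1 was 14.8, 11.4, 14.3 and 13.4 FPKM in the WT libraries 55, 62, 64 and 65, and 22.4, 24.8, 22.0 and 24.7 FPKM in the PATKO libraries 53, 57, 70 and 71. For Tfrc, a search added after its values were seen, the nearest gene was Bcl6 at 0.46, beside a spread of Tfrc of 0.83, a difference above that of Glo1 from Fbxl5.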

How the data were processed

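Per the file headers, the authors deposited FPKM for each gene and library, a mean per group, a fold and an adjusted p-value; only the per-library FPKM were used here, and the deposited p-value and fold were not. The build was mm10 per the submitters' processing notes. Aligner, counter, annotation, use of strand in counting and the test behind the deposited p-value: not given in the sources used here. The stranded poly(A) kit took 0.5 µg of RNA a sample, per the labels' protocols.

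FPKM are not counts, so log2(FPKM + 0.5) was compared by limma 3.58.1 (R 4.3.3; two-sided, with its mean-variance trend) for genes whose mean reached 0.5 FPKM, with Benjamini-Hochberg adjustment over 12235 genes and a threshold of 0.05. The scale understates changes of low genes. The fit was also tested on simulated data. P-values measure the spread between these libraries, which the labels do not say are separate animals. Read totals are not given; ratios of the values of genes with few reads put the other libraries at 1.30 to 1.43 times the depth of WT 55, so no counting intervals are given. Hairpins were found in GENCODE M21 transcripts; figures used Python 3.11.15 and matplotlib 3.10.9.

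The members and all lists were chosen with earlier results of these data known. The text names the 10 genes; of each wider list the genes past the threshold and the most abundant; the 3 profiles nearest to Fbxl5; and 2 neighbours on each side. A few genes that this rule or the lists include are not reported here. Of 48 symbols listed, 1 (Fam132b) is an older name of Erfe and has no row. The alternatives changed the pseudocount (1 or 0.1), the filter (none, or 5 FPKM), the scaling (median-of-ratios, common-total, quantile) and limma's settings (without trend, robust), added a muscle covariate, or left out each library.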

Additional observations from a re-analysis of the deposited data

Results flagged for a closer look

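In 5 of 48 groups of 4 libraries tested with Dixon's criterion, 1 library stood far from the other 3; chance flags about 1 group in 20. Ftl1 was 227.9 FPKM in PATKO 70, beside 180.6 to 183.8 FPKM in the other PATKO libraries. Hfe2 was 16.003 FPKM in PATKO 71, beside 4.67 to 6.30 FPKM, and Pfn2 was 9.27 FPKM in PATKO 71, beside 4.805 to 5.19 FPKM. Cp was 9.36 FPKM in WT 62, beside 6.45 to 6.82 FPKM in the other WT libraries, and Snx3 was lowest there, at 54.8 FPKM beside 59.96 to 60.8 FPKM. No library of Fbxl5 or Tfrc met the criterion.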

How the results depend on the processing

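The log2 change of Fbxl5 lay between 0.59 and 0.87 under all 27 settings run. It was 0.64 after median-of-ratios scaling and after quantile normalization, 0.66 after median-of-ratios scaling with the muscle level as a covariate (added after the data were seen), 0.77 to 0.87 when 1 library was left out and 0.59 to 0.70 when this was done after median-of-ratios scaling (also added later). Limma called Fbxl5 in each single-library omission as deposited, but not with the muscle covariate, nor after median-of-ratios scaling without WT 65, PATKO 53, PATKO 57 or PATKO 71. Over all genes, limma called 1646, and 299 with no filter, 992 without trend, 28 after common-total scaling, 18 after quantile normalization, 15 after median-of-ratios scaling (10 higher and 5 lower, beside 1613 and 33 as deposited) and 2 with the muscle covariate on either scale. Leaving out 1 library gave 24 (WT 64 or PATKO 53) to 1468 (WT 55) calls as deposited and 3 to 62 after median-of-ratios scaling. Of the wider iron genes limma called 9 as deposited, 5 without trend, and 0 with no filter, after any of the 3 scalings or with the muscle covariate. Leaving out 1 library gave 0 (WT 62, WT 64, PATKO 53 or PATKO 70) to 7 (WT 55) calls as deposited and 0 after median-of-ratios scaling. Of the genes called as deposited, those whose estimate changed sign were Hfe2 (-0.09 with the muscle covariate on either scale), and Glrx3 and Pfn2 (-0.07 each with median-of-ratios scaling and the covariate). Limma called none of them there, and each of these estimates was within its SE of 0. The log2 change of Tfrc went from -0.65 to 0.37 over the settings. The cause of these differences was not tested. No paired analysis was possible because the groups share no library numbers. Depth in reads is not known. After median-of-ratios scaling the changes of Ireb2, Slc40a1 and Slc11a2 were smaller than their SE; as deposited they were larger than their SE.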
